A study of Mus musculus with 6 samples.

Results

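Genes of the Bcl2 family set the threshold at which a neuron commits to apoptosis, and 9 of them were chosen by gene symbol from the array's annotation, together with their probe sets: Bcl2, Bcl2l1, Mcl1, Bax, Bak1, Bad, Bid, Bcl2l11 and Bbc3. The annotation lists 28 probe sets of their own for 8 of these genes, out of 18193 genes and 45037 probe sets in all, and Bax was not analysed here. RNA came from dorsal root ganglia (DRGs) of the cervical, thoracic and lumbar levels of mice at P60, about 2 months of age, with 1 Affymetrix array for each of 3 Meis1cko and 3 control mice. Meis1cko mice combined a floxed Meis1 allele with the Nav1.8-Cre transgene. Recombination takes away homeodomain sequence of Meis1, and Cre acts in most nociceptors from late embryonic life onwards. The sample labels call the groups Meis1 mutant and control; the study used Meis1F/F littermates as controls in its behavioral tests, and the exact genotype and the sex of the arrayed mice are not given in the sources used here. Whole ganglia were measured, so that large neurons without Cre, satellite glia, Schwann cells, vessels and connective tissue contributed to each value, and fewer cells of a type cannot be told apart from less RNA per cell.

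Proteins of this family meet at the outer membrane of the mitochondrion. The pro-survival members Bcl2, Bcl-xL (from Bcl2l1) and Mcl1 hold the effectors Bax and Bak1 in check, and the BH3-only members Bad, Bid, Bim (from Bcl2l11) and Puma (from Bbc3) relay stress signals to them. Bad acts by occupying pro-survival proteins. Once Bax or Bak1 opens the membrane, cytochrome c is released and caspases are activated. In sensory ganglia this switch is best known from development, when neurons that gain too little neurotrophin are removed, whereas adult sensory neurons tolerate the loss of neurotrophin far better. The question here was how the core genes of this switch stood in adult DRGs after deletion of Meis1 in nociceptors during development. The study found Meis1 in part of the developing nociceptors. At P60 the study no longer detected Meis1 in nociceptors and found it in a small population of large neurons.

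Meis1 belongs to a class of homeodomain factors that recognise TGACAG, and the RefSeq promoters of the 9 genes (build GRCm38.p6, 250 bases before to 50 after a transcript start) were searched for these letters on both strands, with CTGTCA as the form on the other strand. Of 15 promoters, 3 held the motif (20%), against 19.2% of the 32851 promoters of all genes. The 4 matches are shown because they are the places where the letters of the deleted factor's motif lie near a start of a member. Each line gives 30 bases of the gene's strand, 5′ to 3′, with the motif in capitals.
Bcl2l1, chr2:152828628-152828657, minus strand, from 156 bases before the start: attaagatttggTGACAGactgtatgtggg
Bcl2l1, chr2:152828596-152828625, minus strand, from 124 bases before the start: tgagtcctggccCTGTCActtaactggcca
Bad, chr19:6942517-6942546, plus strand, from 33 bases before the start: gggtcagatctgTGACAGttctcgtcgccc
Bbc3, chr7:16310383-16310412, plus strand, from 36 bases before the start: gggggggggctgTGACAGcggaggggcggc
The distance is counted to the first base of the motif. Bcl2l1, Bad and Bbc3 each have more than 1 listed start, and a match of 6 letters is a description and not a binding site.

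Markers of the tissue were bright in control DRGs, with mean intensities of 13693 for the peripheral neuron gene Prph, 12339 for the neurofilament gene Nefh, 9235 for the satellite glia gene Fabp7 and 10951 for the myelin gene Mbp. Intensities are the authors' normalized values on a linear scale, and the median over all probe sets lay between 62.5 and 65.5 on the 6 arrays. Meis1 itself was lower on its brightest probe set in every Meis1cko mouse (64.2 to 72.1) than in every control mouse (90.2 to 144). Its log2 fold change was -0.74 (SE 0.18), and limma gave an adjusted p of 1. Its dimmer probe sets had smaller differences, with 0.13 for the second, on which every Meis1cko mouse (33.8 to 36.8) narrowly exceeded every control mouse (29.9 to 33.7), and -0.16 for the last. The replicate 3 arrays of both genotypes stood apart from the other 4. For Actb, the array carries control probe sets at both ends of the transcript, and the 3′ one exceeded the 5′ one on the log2 scale by 0.42 and 0.44 on them and between 1.23 and 1.66 on the others. For Gapdh this difference was -0.015 and -0.008 against 0.66 to 1.13. Each measured member is therefore also given without these arrays on its brightest probe set.

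None of the 28 probe sets of the members passed an adjusted p of 0.05 in limma, a threshold that 0.0155% of all probe sets passed (0.00888% higher and 0.00666% lower in Meis1cko). At an unadjusted p under 0.05 in limma, 1 of the 28 passed, a probe set of Bcl2 that was higher in Meis1cko, against 2.32% of all probe sets and 1.15% in that direction. The methods' t-test gave 1 of the 28 at the same level (3.04% of all) and 0 after adjustment. With replicates paired by number, 2 of the 28, both of Bcl2, had an unadjusted p under 0.05 in limma (6.99% of all) and 0 an adjusted one (0.0822% of all). Without the replicate 3 arrays these counts were 2, both of Bid (4.59% of all), and 0 (0.0577% of all). None of the 28 passed the thresholds of the study's methods, a fold change over 1.5 with a p under 0.05, which 0.675% of all probe sets passed in limma. The brightest probe sets had log2 fold changes from -0.16 to 0.18 with a median of -0.04, beside a median of -0.01 for the brightest probe sets of all genes. Genes lay on both sides of 0, with 4 of the 8 above and 4 below.

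**Figure D1:**
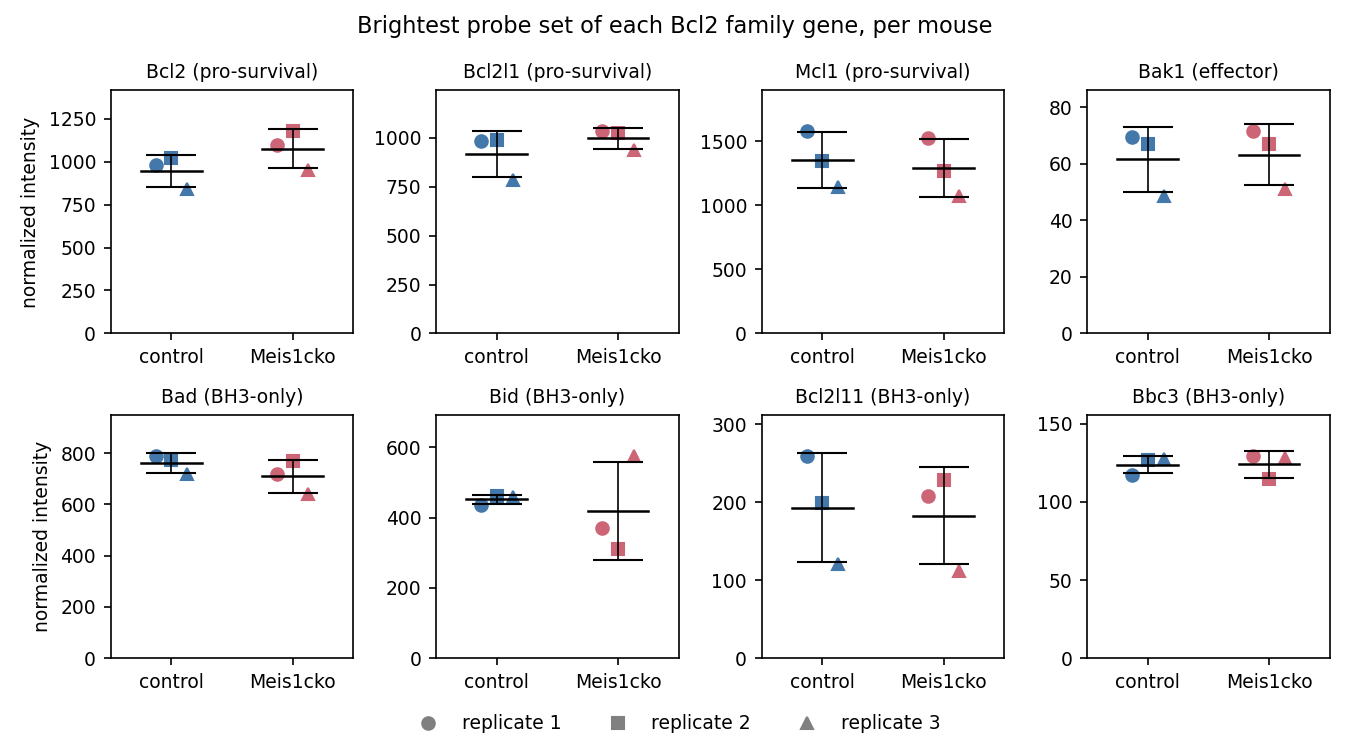
Normalized intensity (linear scale, axis from 0) of the brightest probe set of each measured Bcl2 family gene in each control (blue) and Meis1cko (red) mouse, with the group mean and SD as bars and the replicate number by symbol. The genotypes overlap in every panel, and the triangles of replicate 3 are the lowest points of both groups for Bcl2, Bcl2l1, Mcl1, Bak1, Bad and Bcl2l11.

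Bcl2, the founding pro-survival member, had intensities of 978, 1020 and 842 in the control mice and 1097, 1179 and 952 in the Meis1cko mice on its brightest probe set (1457687_at). The Meis1cko mouse was higher in all 3 pairs of equal replicate number, as for 13.2% of all probe sets, yet the lowest Meis1cko value lay below the 2 highest control values. Group means were 947 ± 93.0 and 1076 ± 115 (SD, n = 3 mice each), a log2 fold change of 0.18 (SE 0.14, 95% interval -0.14 to 0.51) with an adjusted p of 1 in limma. Without the replicate 3 arrays it was 0.19, with an interval of -0.14 to 0.52.

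The next probe set of Bcl2 (1437122_at) separated the genotypes. Control mice had 218, 209 and 198, and Meis1cko mice had 278, 234 and 259. Every Meis1cko value was above every control value, which 1 of the 28 member probe sets showed in this direction and none in the other, against 3.21% of all probe sets higher, 3.43% lower and 6.64% in either direction. The log2 fold change was 0.30 (SE 0.12, interval 0.02 to 0.58), with an unadjusted p of 0.0405 in limma (adjusted p of 1). The exact permutation test, two-sided, gave 0.1, the smallest value that 3 mice against 3 allow. With the replicates paired by number the unadjusted p was 0.0248 in limma (adjusted p of 0.635). Without the replicate 3 arrays the log2 fold change was 0.26 with an unadjusted p of 0.135 in limma. Leaving out 1 array at a time, the unadjusted p in limma lay between 0.0376 and 0.116. It was 0.0811 with a trend in eBayes, 0.0610 with array weights and, as the lowest of the alternatives, 0.0116 with 50 added before log2.

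For the remaining 3 probe sets of Bcl2 the log2 fold changes were 0.08, 0.39 and 0.18, so that all 5 lay above 0, and they share the RNA of the same 6 arrays. Of these, 2 were dim, with control means of 17.6 and 17.9, under the 25th percentile of each array (20.8 at the lowest), where fold changes are least certain.

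Bcl2l1, whose long product Bcl-xL protects neurons and whose short product promotes death, had control intensities of 984, 990 and 783 and Meis1cko intensities of 1035, 1024 and 936 (1420888_at). The values overlapped, since the lowest Meis1cko mouse lay below 2 control mice. The log2 fold change was 0.13 (SE 0.14, interval -0.19 to 0.45, adjusted p of 1 in limma), and 0.06 without the replicate 3 arrays. The long and short products cannot be told apart from the annotation used here. For its other 3 probe sets the differences were 0.09, 0.06 and 0.02 on the log2 scale.

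Mcl1 encodes a pro-survival protein of short half-life and had the most probe sets, 6. The brightest (1437527_x_at) had control values of 1581, 1348 and 1144 and Meis1cko values of 1527, 1271 and 1072. Each Meis1cko mouse lay below the control mouse of the same number by little, and the spread within a genotype was several times the difference between the means of 1358 ± 219 and 1290 ± 228 (SD, n = 3 mice each). The log2 fold change was -0.08 (SE 0.18, interval -0.50 to 0.35), and -0.07 without the replicate 3 arrays. The other 5 had log2 fold changes from -0.12 to 0.03. The suffix _x_at, which Affymetrix gives to probe sets that may hybridize with other sequences, stands on 5 of the 28 member probe sets, among them this one.

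Bak1, the effector that sits in the mitochondrial membrane, had control intensities of 69.6, 66.8 and 48.5 and Meis1cko intensities of 71.6, 66.9 and 50.9 (1418991_at). The groups all but coincided mouse by mouse, with the replicate 3 mouse lowest in each. The log2 fold change was 0.04 (SE 0.20, interval -0.42 to 0.49), and 0.02 without the replicate 3 arrays. Its other probe set, at 23.4 in control DRGs, had 0.06. Within each array, the log2 difference of Mcl1 over Bak1 was 4.51, 4.33 and 4.56 in control and 4.42, 4.25 and 4.40 in Meis1cko mice. These values overlapped and the group means of 4.47 and 4.35 differed by about the SD of either group (0.12 and 0.09). Within pairs of equal replicate number the Meis1cko mouse minus the control mouse was -0.09, -0.09 and -0.17, lower in all 3.

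Among the BH3-only genes, Bad, whose product is silenced by phosphorylation in the presence of growth factors, had control intensities of 790, 774 and 717 and Meis1cko intensities of 718, 768 and 641 (1416582_a_at). Each Meis1cko mouse lay below its numbered control, and the groups overlapped. The log2 fold change was -0.10 (SE 0.12, interval -0.39 to 0.18), and -0.07 without the replicate 3 arrays, and its second probe set had -0.07 over all arrays.

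Bid links death receptors to mitochondria after cleavage by caspase 8. Control mice had 437, 460 and 458, and Meis1cko mice had 371, 310 and 576 on the brightest probe set (1417045_at). Of the Meis1cko mice, 2 lay below all control mice and the mouse of replicate 3 above them all. The log2 fold change was -0.16 (SE 0.22, interval -0.68 to 0.36, adjusted p of 1 in limma). Without the replicate 3 arrays it was -0.40 (interval -0.76 to -0.04), with an unadjusted p of 0.0330 in limma (adjusted p of 0.998). The second probe set (1448560_at) had 88.0, 103 and 200 in control and 55.1, 76.2 and 236 in Meis1cko mice. It went from -0.29 to -0.56 (unadjusted p of 0.0215 in limma, adjusted p of 0.998) when the replicate 3 arrays were left out, and its last probe set from 0.03 to -0.003.

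Bcl2l11 encodes Bim, which is induced in neurons deprived of nerve growth factor. Its brightest probe set (1456005_a_at) had 259, 199 and 121 in control and 208, 228 and 112 in Meis1cko mice. The replicate 3 mouse was the lowest of each genotype and the groups overlapped throughout, with a log2 fold change of -0.08 (SE 0.35, interval -0.90 to 0.75), and -0.06 without the replicate 3 arrays. The next probe set, at 102 ± 16.1 and 104 ± 8.76 (SD, n = 3 mice each), had 0.05 (interval -0.31 to 0.40), and the other 3 had -0.06, 0.05 and -0.05.

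Bbc3 encodes Puma, a target of p53, and had similar values in all mice, with 117, 127 and 127 in control and 130, 114 and 128 in Meis1cko mice (1423315_at). Means were 124 ± 5.51 and 124 ± 8.38 (SD, n = 3 mice each), and the log2 fold change was 0.00 (SE 0.12, interval -0.27 to 0.27), and -0.0025 without the replicate 3 arrays.

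**Figure D2:**
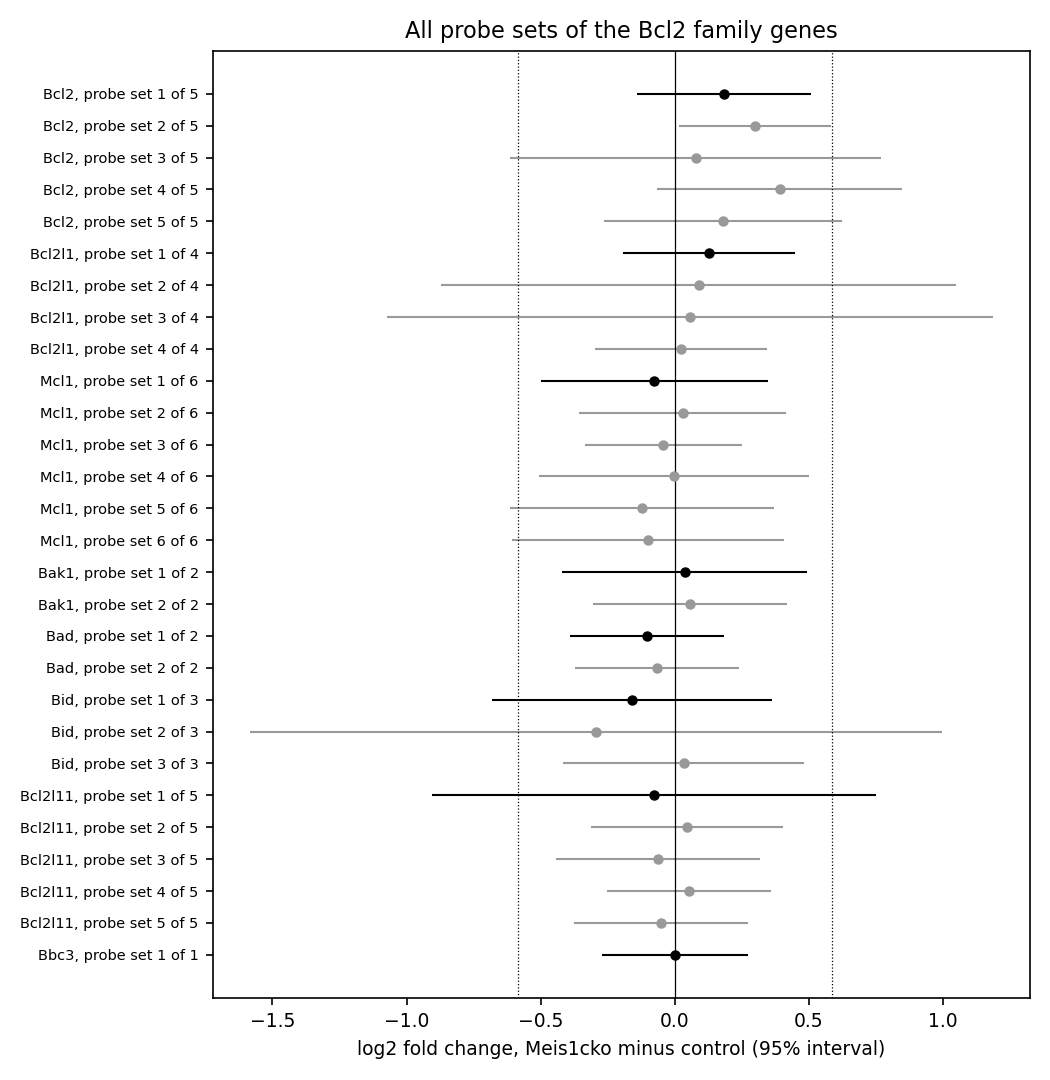
Log2 fold change (Meis1cko minus control, 3 mice each) of all 28 probe sets of the Bcl2 family genes with 95% intervals from limma, the brightest of each gene in black, and dotted lines at a 1.5-fold change in either direction. The second Bcl2 probe set (interval 0.02 to 0.58) lies wholly above 0, and the widest intervals belong to probe sets of Bid, Bcl2l1 and Bcl2l11.

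The intervals say how large a change these arrays could have missed. For 6 of the 8 genes (Bcl2, Bcl2l1, Mcl1, Bak1, Bad and Bbc3) the 95% limma interval of the brightest probe set lay within a 1.5-fold change in both directions, as it did for 73.0% of all genes. Of all 28 member probe sets 64.3% did so, against 70.0% of all probe sets, and a dimmer one of Bcl2l1 reached from -1.07 to 1.18 on the log2 scale. By the methods' t-test the intervals of Mcl1 (-0.63 to 0.48) and Bak1 (-0.58 to 0.66) went past that limit, 0.585 on this scale. On the brightest probe set, the limma interval of Bid reached from 0.624 to 1.29 times the control level and that of Bcl2l11 from 0.534 to 1.68 times. A p that misses the threshold does not show that the genotypes had equal levels, and changes in nociceptors alone would be diluted by the other cells of the ganglion.

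The members differed more between the replicate 3 arrays and the others than between genotypes. The replicate 3 difference was larger than the genotype difference for all 8 brightest probe sets and for 24 of the 28, beside 70.6% of all probe sets. Its direction differed between probe sets of the same gene. Bcl2 was lower on the replicate 3 arrays on its brightest probe set (-0.25 on the log2 scale) and higher on another (0.78). Bcl2l1 was lower on its brightest (-0.24) and higher on the next 2 (1.10 and 1.32), where the replicate 3 mice had 83.5 and 100 in control and 99.2 and 88.7 in Meis1cko against 35.1 to 48.7 in all other mice. Bid was higher on its second probe set (1.46) and Bcl2l11 lower on its brightest (-0.93). These shifts ran alongside the 3′ to 5′ differences of Actb and Gapdh given above, whose part in them was not tested.

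**Figure D3:**
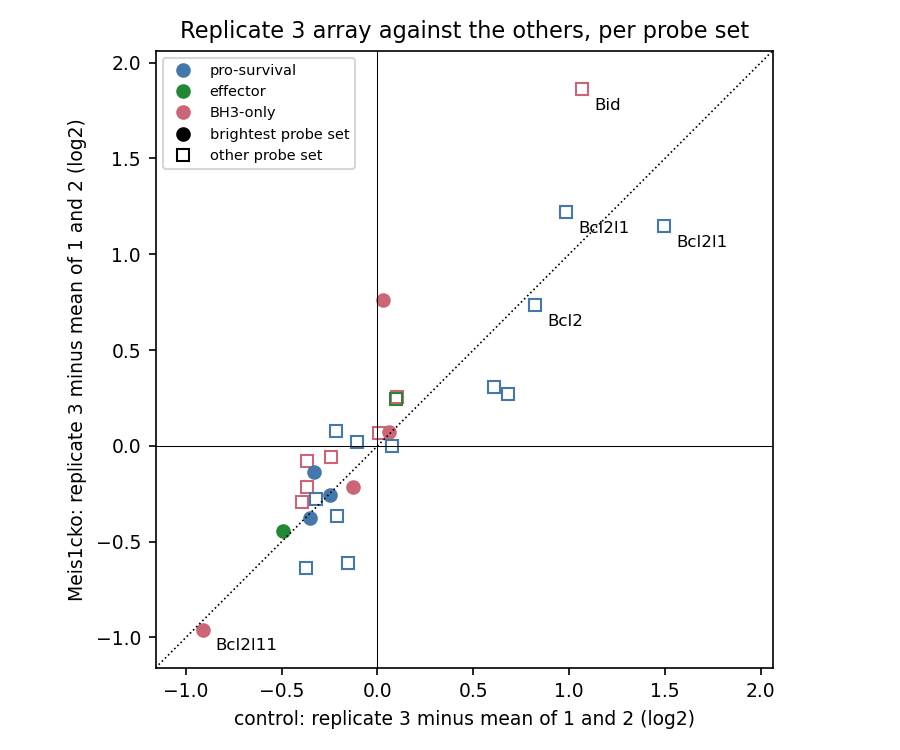
Log2 intensity of the replicate 3 array minus the mean of replicates 1 and 2, in control (x axis) and in Meis1cko (y axis) mice, for the 28 probe sets of the Bcl2 family genes, coloured by role, with the line of equality dotted. Filled circles are the brightest probe set of each gene and open squares the others. Bcl2l11 lies lowest in both genotypes (-0.91 and -0.96), a probe set of Bcl2l1 highest in control and one of Bid highest in Meis1cko (1.86), and the brightest Bid probe set stands off the line (0.03 in control, 0.76 in Meis1cko).

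Beyond these members, 73 of 84 further genes of cell death and survival were measured, in 6 lists by role, and none passed the adjusted threshold of limma or the thresholds of the study's methods on any probe set. A list of 14 other genes held Bcl2 family members and Bnip genes, which are named for interacting with Bcl2. Of the 14, 1 had an unadjusted p under 0.05 in limma on its brightest probe set, as had 2.56% of all genes. Bcl2l14, a family member of little known function in neurons, had 294, 263 and 312 in control and 252, 226 and 221 in Meis1cko mice, without overlap, as for 6.94% of all genes. The difference was -0.31 on the log2 scale (SE 0.12, unadjusted p of 0.0387 in limma, adjusted p of 1), and -0.07 on its second probe set. Without the replicate 3 arrays it was -0.22 with an unadjusted p of 0.179 in limma. Pmaip1, which encodes the BH3-only protein Noxa, had 38.6, 43.1 and 37.2 against 72.2, 54.2 and 38.6. It had a log2 fold change of 0.43 (SE 0.22, unadjusted p of 0.0956 in limma), with the replicate 3 mouse of Meis1cko at the level of a control mouse. Without the replicate 3 arrays it was 0.62 (interval 0.20 to 1.04, unadjusted p of 0.00964 in limma, adjusted p of 0.907). With replicates paired by number the unadjusted p was 0.0341 in limma (adjusted p of 0.676). In that paired fit 2 of the 14 genes had an unadjusted p under 0.05 (1294 of all 18193), and 1 without the replicate 3 arrays (802 of all). Bnip1 had -0.22 and the effector-like gene Bok had -0.15. The list had a median of 0.00.

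Caspases carry out the killing, and of the 8 measured here 3 lay above and 5 below 0, with a median of -0.07. None had an unadjusted p under 0.05 in the unpaired limma fit, and 1, Casp6, did by the methods' t-test, as did 3.31% of all genes. The largest was Casp4, an inflammatory caspase, with 67.0, 59.4 and 43.5 in control and 128, 61.2 and 58.5 in Meis1cko mice. Its log2 fold change was 0.47 (SE 0.32), and 1 Meis1cko mouse stood far above the rest. The Meis1cko mouse was higher in all 3 pairs, as for 13.2% of all probe sets. With replicates paired by number the unadjusted p of Casp4 was 0.0255 in limma (adjusted p of 0.638). The executioner gene Casp6, which takes part in axon pruning, had 78.8, 74.7 and 76.8 in control and 94.9, 85.4 and 82.5 in Meis1cko mice. These did not overlap, as for 6.94% of all genes, and the log2 fold change was 0.19 (SE 0.11, unadjusted p of 0.141 in limma). Its other probe set had -0.07. The initiators Casp8 and Casp9 had -0.22 and -0.07, and the skin caspase gene Casp14 had -0.16.

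Downstream of the mitochondrial switch, the 12 genes of the apoptosome and of mitochondrial release lay between -0.23 and 0.15. The cytochrome c gene Cycs had 0.15, the protease gene Htra2 had -0.23 and Mtch2, which encodes the membrane receptor of Bid, had -0.08. The apoptosome scaffold gene Apaf1 had -0.14. Its dimmer probe set had 0.33 (unadjusted p of 0.0774 in limma) without overlap, as for 6.64% of all probe sets. None of the 12 genes had an unadjusted p under 0.05 in limma or by the methods' t-test, also on their other probe sets in limma. The 9 measured inhibitor of apoptosis genes lay between -0.18 and 0.11. Birc3 had -0.18, Birc6 had 0.11, Birc5 had -0.13 and Birc2 had 0.09, and none had an unadjusted p under 0.05 in either test.

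Upstream of the switch, 11 of the 13 death receptor, ligand and adaptor genes lay below 0, as did 9857 of all 18193 genes. The list had a median of -0.06, and none had an unadjusted p under 0.05 in the unpaired limma fit or by the methods' t-test. With replicates paired by number 1 of the 13 had one in limma, and 1 without the replicate 3 arrays, beside 1294 and 802 of all genes. The death receptor gene Fas had 38.6, 33.6 and 42.8 in control and 58.2, 42.2 and 44.1 in Meis1cko mice, a log2 fold change of 0.32 (SE 0.17). Without the replicate 3 arrays it was 0.46. The ligand gene Tnfsf10 had 0.23, and the adaptor genes Traf2 and Cradd had -0.24 and -0.23.

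Of the 17 stress and survival regulators measured, 6 lay above and 11 below 0, with a median of -0.02, beside 9857 of all 18193 genes below 0. Ywhaz, which encodes a 14-3-3 protein of the class that holds phosphorylated Bad in the cytosol, had 9914, 10027 and 12574 in control and 13886, 13939 and 11818 in Meis1cko mice. Its log2 fold change was 0.29 (SE 0.15, unadjusted p of 0.0834 in limma) with overlap on the replicate 3 arrays, and 0.48 without them. Among its other 6 probe sets, the largest difference was 0.57 (SE 0.20, unadjusted p of 0.0234 in limma) and the lowest was -0.40. A dim probe set of Trp63, at 17.0 in control DRGs, had 0.44 (unadjusted p of 0.0108 in limma), while the brightest of this p53 relative had -0.06. The forkhead gene Foxo1 had 0.20 and did not overlap between genotypes, as for 6.94% of all genes. Foxo3, which activates Bcl2l11 when survival signals fall, had -0.30 with an interval of -1.18 to 0.57, and Jun had -0.16. The p53 gene Trp53 was not analysed here.

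**Figure D4:**
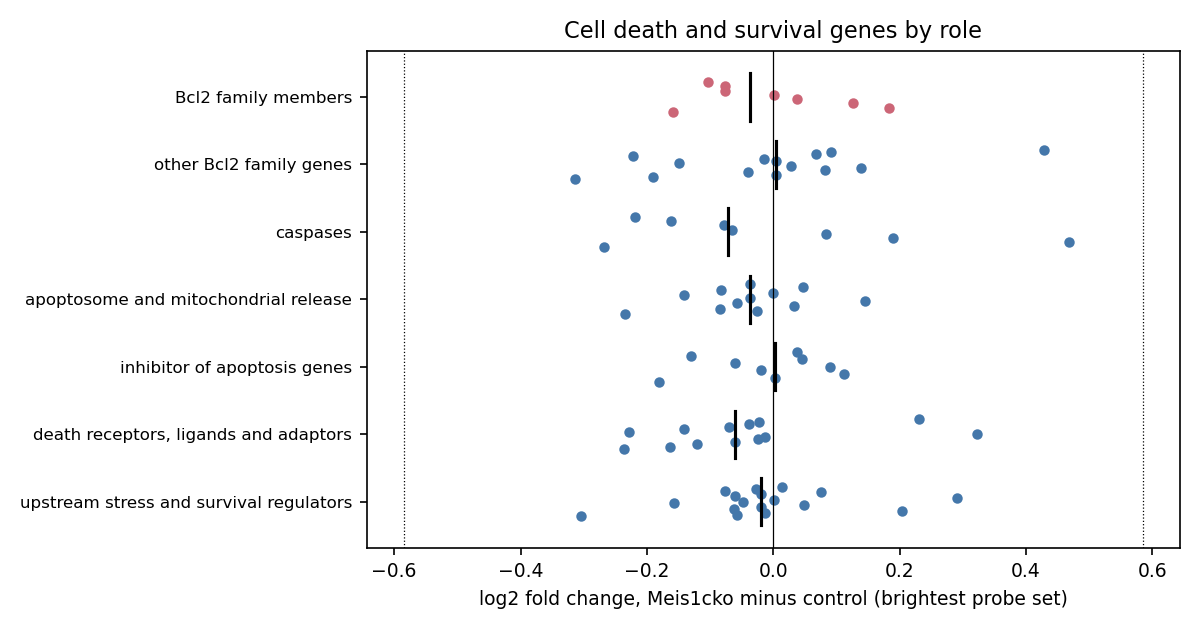
Log2 fold change (Meis1cko minus control, brightest probe set of each gene) of the 8 measured Bcl2 family members (red) and of 73 further genes of cell death and survival in 6 lists (blue), with the median of each list as a black bar and dotted lines at a 1.5-fold change. All points lie between the dotted lines, the farthest being Casp4 (0.47) and Pmaip1 (0.43).

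Cell type markers gave the background of cells against which these values stand. Summed intensities of the markers of nociceptors (6 of 8 measured) were 35095 to 35959 in control and 34730 to 37484 in Meis1cko mice, and those of large neurons, satellite glia and macrophages also overlapped. Of the large neuron markers 5 of 5 measured were higher in Meis1cko, while 5 of 6 satellite glia markers and 6 of 7 macrophage markers were lower, none past the adjusted threshold of limma (1, 2 and 1 at an unadjusted p under 0.05). The fibroblast sum (6 of 6) was 7874 to 12442 in control and 5567 to 7332 in Meis1cko mice, with all 6 markers lower and none past the adjusted threshold of limma (3 at an unadjusted p under 0.05). The B cell sum (5 of 6 measured) was 292 to 514 in control and 578 to 820 in Meis1cko mice, with 2 markers higher, 3 lower and none past that threshold (1 at an unadjusted p under 0.05). Among all 18193 genes, 2.56% had an unadjusted p under 0.05 in limma, 8336 were higher in Meis1cko and 9857 lower. Markers of skeletal muscle were highest in control replicate 1, at a sum of 3029 against 269 to 946 in the other mice, and so were those of neutrophils (9901) and erythroid cells (762). The part of these cells in the values of the members was not tested.

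The genes whose log2 profile over the 6 arrays was closest to a member were looked up for 1 member of each role, the one with the smallest p, among the 12177 or 12178 other genes at or above the median intensity. For Bcl2 they were Lig3, Cbln1 and Mon2 (Pearson r from 0.988 to 0.992), for Bak1 they were Zfp148, Tor1b and Tcf20 (r of 0.998 to 0.999) and for Bad they were Cd96, Nrf1 and Tnrc6c (r from 0.990 to 0.996). All 6 points of each correlation come from the same arrays, and each of these 9 genes was lower on the replicate 3 arrays than on the others, as the 3 members were. The correlations are a description over 6 arrays and were not tested.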

How the data were processed

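Total RNA of 6 DRG samples was run on Affymetrix mouse arrays, each mouse on its own 1-colour array. The authors read the images with GeneChip Command Console and analysed them in GeneSpring. The deposited values are intensities normalized by the authors on a linear scale; the method of summarising the probes is not given in the sources used here, the methods name an RNeasy kit and the labels Trizol for the extraction. Of 45101 probe sets, 64 belong to array controls and were not tested.

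Values were taken to log2 without an offset (none was under 1) and compared with lmFit and eBayes in limma 3.58.1 (R 4.3.3), adjusted by Benjamini-Hochberg across the 45037 others. The fit was tested on simulated data with independent noise and planted log2 changes of 1 or 2 in either direction. These data held no shift shared by the replicate 3 arrays and no smaller changes, so the test does not cover those settings. Each gene is represented by the probe set with the highest mean log2 value over the 6 arrays. Gene symbols came from the array annotation, updated by gene ID through the RefSeq table of GRCm38.p6. It gives 1 gene for 34945 probe sets, several for 932 and none for 9160, and genes were named from the first kind only. The methods' t-test is the unmoderated test on the same log2 values. Arrays of the same replicate number deviated together from their group means (r of 0.424, 0.535 and 0.766). Arrays of replicates 1 and 2 also did so across numbers (0.319 and 0.337). Deviations within a group cancel out, so a shift shared by the replicate 3 arrays alone makes those of replicates 1 and 2 deviate together. These values therefore cannot show whether equal numbers belong together for replicates 1 and 2. Pairing by number was an alternative to the unpaired fit. Labels do not say whether pairs share a litter. The number of arrays limits the precision.

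The members, the lists and the tests were chosen with earlier results of these data known. Named genes are all members, Meis1, the up to 4 genes of each list with the smallest p on the brightest probe set, any list gene past the adjusted or the methods' thresholds, and the 3 genes most like a member. Casp9, Trp63 and the dimmer Ywhaz probe set were added after their values were seen. Alternatives concerned the test (a trend in eBayes, weights for arrays, the methods' t-test), the scaling (quantile, median centring), low values (leaving out those under the 25th percentile or under the median, or adding 16 or 50 before log2), the replicate number as a block, arrays left out singly or both of replicate 3, and averaging a gene's probe sets. A planned difference of Bcl2 or Bcl2l1 over Bax within an array was not made.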

Additional observations from a re-analysis of the deposited data

How the results depend on the processing

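No member and no gene of the 6 lists passed the adjusted threshold in any of the 18 alternatives, and the lowest adjusted p among the members was 0.174 (Bid). Bak1 lay below the filter at the median and has no value there. Across the arrays, 4 probe sets passed with higher and 3 with lower values in Meis1cko; array weights gave 93 and 84, the methods' t-test 0 and 0, the replicate block 20 and 17, and the fit without both replicate 3 arrays 17 and 9. Quantile normalization gave 7 higher, the filter at the median 1 higher, and offsets of 16 and 50 each 1 higher and 0 lower. Leaving out 1 array gave 1 to 12 higher (12 without Meis1cko replicate 3) and 0 to 3 lower. Pairing the replicates ended or made no call among the members or the lists. Bcl2, Bcl2l1 and Bad kept their direction in all alternatives but not their size: Bcl2 lay between 0.10 and 0.27, Bcl2l1 between 0.0154 (without control replicate 3) and 0.18, and Bad between -0.16 and -0.0185 (array weights), and the second Bcl2 probe set lay between 0.18 and 0.37.

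With array weights Bid had -0.50 (unadjusted p of 0.00662 in limma), Bcl2 0.24 (unadjusted p of 0.0283), Bcl2l11 0.16 and Bbc3 -0.11, and without both replicate 3 arrays Bbc3 had -0.0025. Leaving out 1 array, Mcl1 lay between -0.21 and 0.0496 (above 0 without Meis1cko replicate 3 or control replicate 1), Bak1 between -0.13 and 0.18 (below 0 without Meis1cko replicate 1 or 2 or control replicate 3), Bid between -0.41 and 0.0337 (above 0 without Meis1cko replicate 2), Bcl2l11 between -0.38 and 0.24 (above 0 without Meis1cko replicate 3 or control replicate 1) and Bbc3 between -0.0361 and 0.0587 (below 0 without Meis1cko replicate 1 or 3 or control replicate 1). The cause was not tested. Dim probe sets under the 25th percentile have no exact fold change.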
